A study of Caenorhabditis elegans with 2 samples.

Results

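Peaks between divergent protein-coding gene starts are the summits that lay between a gene read leftward and a gene read rightward, so that 1 stretch of DNA was upstream of both. A peak was counted here when its summit fell between the start of a minus-strand gene and that of the next plus-strand gene on an autosome, with starts at most 2000 bp apart and no protein-coding gene record reaching into the gap. Of the 30000 peaks in the pooled relaxed list, 24440 lay on autosomes and 322 of these met the rule. The rule used positions alone and no measured value. The autosomes held 2318 such gaps, of which 266 held 1 peak, 28 held 2 and 2024 held none.

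A divergent gene pair shares its upstream region, and such a region can carry the promoter elements of both genes. In compact genomes such as that of Caenorhabditis elegans these pairs are common, and some pair genes that act together, for example the partner subunits of a chaperone. Many worm transcripts are trans-spliced, meaning that a short leader RNA replaces the original end of the message. An annotated start therefore often lies somewhat downstream of the place where transcription begins.

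The data are chromatin immunoprecipitation and sequencing (ChIP-seq) of HLH-17, a basic helix-loop-helix transcription factor related to the vertebrate Olig proteins and studied in head glia of the worm. The strain, OP643, carries the transgene wgIs643, in which hlh-17 is joined to the tags TY1, EGFP and 3xFLAG, with unc-119(+) as rescue gene in an unc-119(tm4063) background, so both replicates bear the tagged gene beside the endogenous hlh-17. Whole mixed-sex larvae of the first stage (L1), starved after bleaching and 6 h old, were used in 2 biological replicates with an antibody against GFP. These form a single group, so no condition was compared, and whole-larva peak lists hold no expression values against which a cell type could be checked.

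The relaxed lists of the 2 replicates and the pooled relaxed list hold 30000 peaks each. The thresholded list, made by the authors with the irreproducible discovery rate, which rates how alike peak ranks are between lists, holds 115. Those 115 were the strongest of the pooled list, and 101 lay on autosomes. Peaks are ranked below by the authors' own signal within a list, with rank 1 the strongest. That signal has no stated scale, and its range was not the same in every list, so values of different lists are not compared, and peaks are set side by side by rank or within 1 list. Read numbers were not used here and the sequencing depth is unknown. A pooled peak is called found in a replicate where the list of that replicate had a summit at most 100 bp away.

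Of the 11 thresholded peaks between divergent starts, 6 had the same 9 bases, ACTCCTCTC, within 50 bp of the summit on either strand. The word was noticed in these sequences after the data were seen, and it is given as a description with no test. Sequences of 5 of the 6 are aligned here on that word, which is in capitals, because they show how far the likeness extends. In 4 of the 5 the capitals run on to ACTCCTCTCGGA. All sequences are from the RefSeq genome of build WBcel235, the assembly that ce11 denotes.
cux-7/C07H6.2, chrIII:7520793-7520842, minus strand: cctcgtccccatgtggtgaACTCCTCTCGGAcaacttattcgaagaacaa
C45G9.11/C45G9.2, chrIII:5069001-5069050, plus strand: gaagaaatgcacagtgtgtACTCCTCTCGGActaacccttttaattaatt
F01D4.5/ced-5, chrIV:10483909-10483958, plus strand: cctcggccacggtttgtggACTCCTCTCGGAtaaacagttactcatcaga
C56A3.6/cav-2, chrV:13556809-13556858, minus strand: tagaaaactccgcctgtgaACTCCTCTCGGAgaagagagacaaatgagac
W02H5.16/W02H5.19, chrV:2638713-2638763, plus strand: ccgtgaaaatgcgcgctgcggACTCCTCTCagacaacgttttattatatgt

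The word lay beside the summit rather than on it, with its centre 10.5 bp from the summit at C45G9.11/C45G9.2, 20 bp at W02H5.16/W02H5.19, 22.5 bp at F01D4.5/ced-5, 27.5 bp at C56A3.6/cav-2 and 28.5 bp at cux-7/C07H6.2. The word was on the plus strand in 3 of these 5 sequences and on the minus strand in the others.

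A different set of elements stood at the Hsp70 pair F44E5.4/F44E5.5. The sequence within 50 bp of its summit held 2 copies of GAANNTTC, the inverted pair of GAA units found in heat shock elements, and 1 E-box of the form CAGCTG, all in capitals below. The sequence at Y22D7AL.10/hsp-60, the gap of the mitochondrial chaperonin pair, is shown beside it because that pair also encodes chaperones. It held neither motif.
F44E5.4/F44E5.5, chrII:11759404-11759504, plus strand: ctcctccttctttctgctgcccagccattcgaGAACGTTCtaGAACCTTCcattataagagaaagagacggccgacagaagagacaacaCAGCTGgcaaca
Y22D7AL.10/hsp-60, chrIII:1619092-1619192, plus strand: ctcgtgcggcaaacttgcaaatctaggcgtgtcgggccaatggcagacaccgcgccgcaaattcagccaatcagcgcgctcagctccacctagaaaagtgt

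The 2 GAANNTTC copies were centred 14.5 and 4.5 bp from the summit, and the E-box 41.5 bp from it. This was the single thresholded peak between divergent starts with a GAANNTTC in that window.

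Peaks between divergent starts made up a small share of all peaks but a larger share of the strongest. They were 1.32% of the autosomal pooled peaks and 10.9% of the thresholded ones, while the gaps cover 2.14% of autosomal sequence (1.77 Mb). By length the gaps thus held fewer peaks than autosomal sequence as a whole, 182 against 296 per Mb, but more thresholded peaks, 6.21 against 1.22 per Mb. Upstream windows of genes with no divergent partner, called one-sided here, spanned 12.2 Mb and held 258 peaks and 2.12 thresholded peaks per Mb. Peaks of the first 1000 pooled were closer, with 12.4 per Mb in the gaps, 9.88 in the one-sided windows and 10.4 over all autosomal sequence. The median pooled signal was 71.2 in the gaps, 69.6 at one-sided peaks and 70.3 over all autosomal peaks. In the lists of the replicates the gaps held 221 and 176 peaks per Mb, again below the 257 and 258 of the one-sided windows.

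The excess among strong peaks was tested against the 3158 one-sided peaks, whose summits lay at most 1000 bp upstream of a start that has no divergent partner. In the thresholded list were 11 of the 322 peaks between divergent starts (3.42%, exact Clopper-Pearson 95% interval 1.72 to 6.03) and 26 of the one-sided peaks (0.823%, 0.538 to 1.20), where 0.413% of all autosomal pooled peaks were. The odds ratio was 4.26 (1.88 to 9.02, two-sided Fisher's exact test, adjusted p = 0.00169). Among the first 1000 pooled peaks were 22 of the 322 (6.83%, 4.33 to 10.2) and 121 one-sided peaks (3.83%, 3.19 to 4.56), against 3.50% of all autosomal peaks. That odds ratio was 1.84 (1.09 to 2.97, adjusted p = 0.0213 by Fisher's exact test). Both classes share the libraries and the peak calling, peaks are not replicates of a condition, and the thresholded peaks are also counted in the first 1000.

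By share of peaks in the first 1000 the replicates gave the same direction, and the test was passed in replicate 1 alone. Replicate 1 held 391 peaks between divergent starts, of which 28 were in its first 1000 (7.16%, 4.81 to 10.2), against 4.25% of 3152 one-sided peaks and 3.47% of its autosomal peaks. The odds ratio there was 1.74 (1.10 to 2.67, adjusted p = 0.0213 by Fisher's exact test). Replicate 2 held 312, of which 17 were in its first 1000 (5.45%, 3.21 to 8.58), against 3.80% of 3159 one-sided peaks and 3.50% of its autosomal peaks. Its odds ratio was 1.46 (0.811 to 2.48, adjusted p = 0.168 by Fisher's exact test). The difference between the replicates was not tested. By length, the first 1000 of replicate 1 gave 15.8 peaks per Mb in the gaps against 10.9 in one-sided windows. In replicate 2 the gaps had 9.60 against 9.80, so there the direction by length was not the same. For the strongest 115 peaks of a single replicate the odds ratio was 3.53 in replicate 1 (adjusted p = 0.00304 by Fisher's exact test) and 3.75 in replicate 2 (adjusted p = 0.00979).

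**Figure D1:**
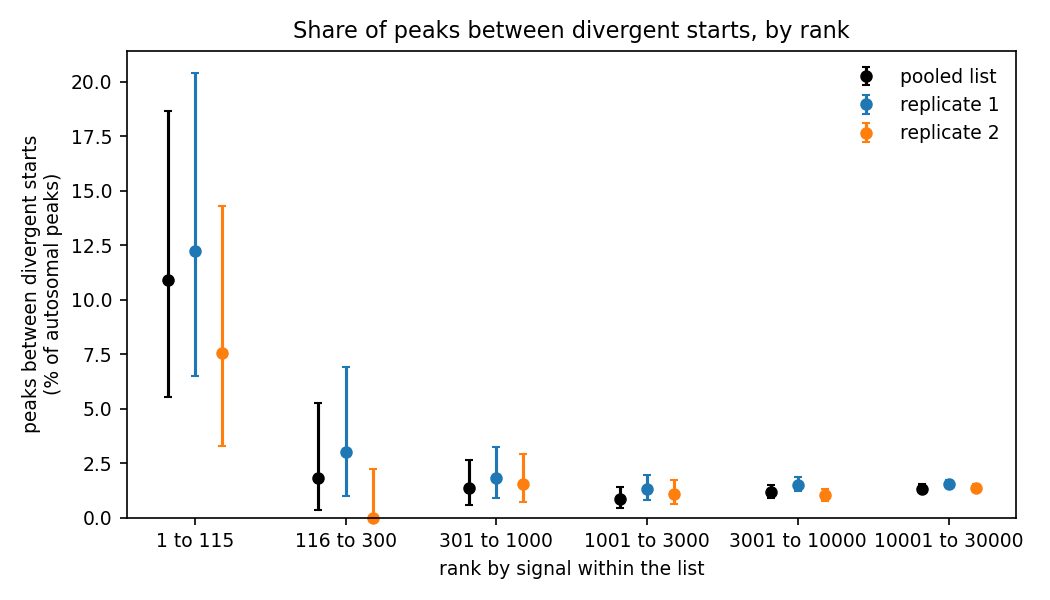
Share of autosomal peaks that lay between divergent starts (percent, y axis) by rank within each list (x axis), for the pooled list and both replicates. Points are shares and bars are exact 95% Clopper-Pearson intervals. The share was 10.9% at pooled ranks 1 to 115 and between 0.851% and 1.83% at all lower ranks.

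The excess was held by the very first ranks. In the pooled list the share between divergent starts was 10.9% at ranks 1 to 115 (11 of 101 autosomal peaks, 5.56 to 18.7), 1.83% at ranks 116 to 300 (3 of 164), 1.36% at ranks 301 to 1000 (8 of 590) and 0.851% at ranks 1001 to 3000 (14 of 1646). It was 1.34% in the last class, ranks 10001 to 30000. Replicate 1 had 12.2% and replicate 2 7.55% at ranks 1 to 115, and replicate 2 had 0 of 163 at ranks 116 to 300 (upper limit 2.24%). With the first 3000 pooled peaks in place of the first 1000, the odds ratio against one-sided peaks was 1.09 (adjusted p = 0.632 by Fisher's exact test). The first 1000 also missed the threshold with one-sided summits kept only outside gene records (1.66, adjusted p = 0.074) and without summits near non-coding genes (1.81, adjusted p = 0.0536 by Fisher's exact test).

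Peaks between divergent starts lay closer to a start than one-sided peaks, with a median of 221 bp to the nearer start against 536 bp. They are flanked by 2 starts, and the part of this in the difference was not tested. With both classes held to 250 bp the thresholded list still had 11 of 172 (6.40%) against 10 of 753 (1.33%), an odds ratio of 5.06 (adjusted p = 0.00214 by Fisher's exact test). Median GC content within 50 bp of the summit was 39.6% in both classes. It was 47.5% at the 11 thresholded peaks between divergent starts and 46.5% at the 26 one-sided ones. Second copies of the summit sequence in the genome were present at 26 of the 322 peaks, and at none of the 11 thresholded ones. One-sided peaks had them at 184 of 3158, and at 2 of the 26 thresholded ones.

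**Figure D2:**
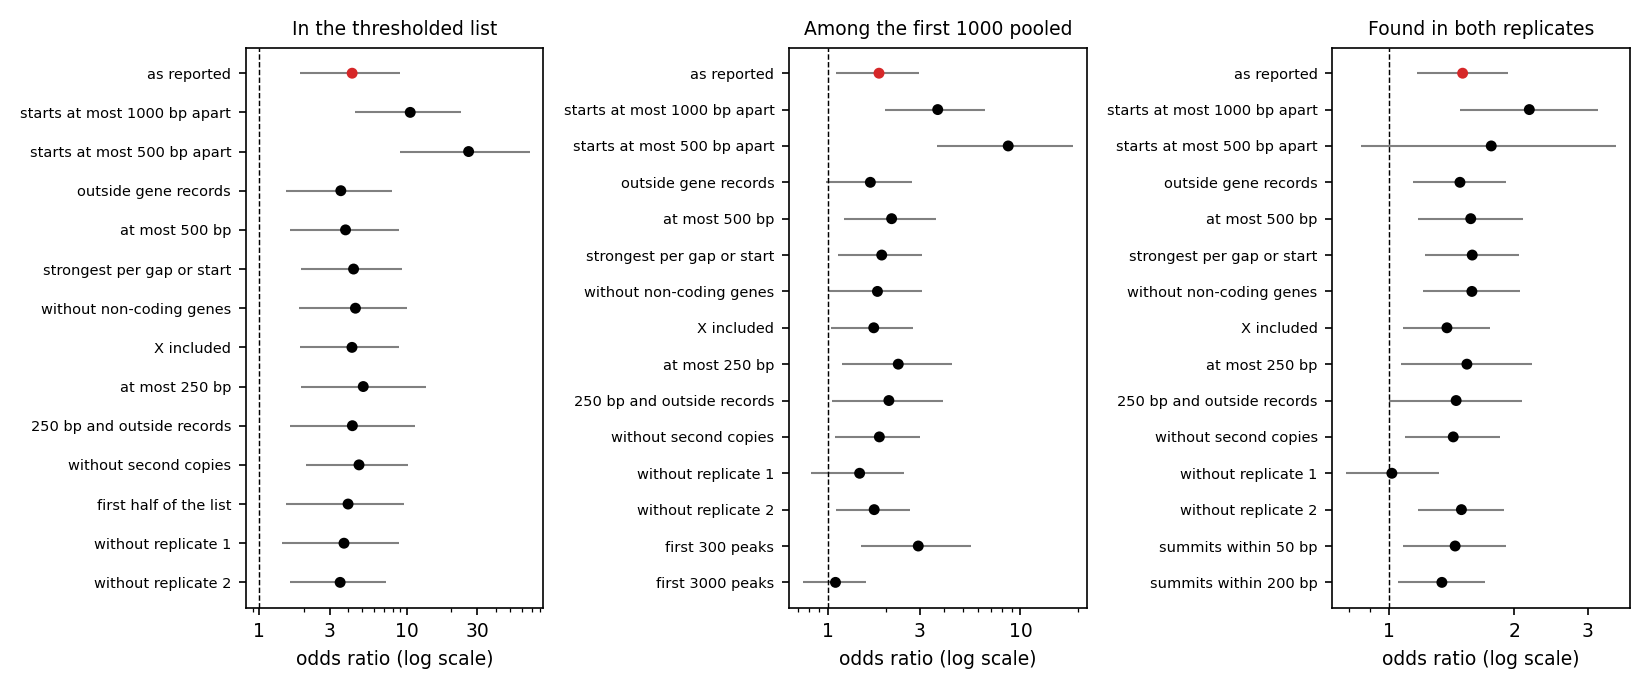
Odds ratio of peaks between divergent starts against one-sided peaks (log x axis, dashed line at 1) for 3 shares, as reported (red) and under each alternative processing (black). Bars are exact 95% intervals. For the thresholded list, or as many of the strongest peaks of a single replicate, the ratio was between 3.53 and 26.2 in 13 alternatives. For peaks found in both replicates it fell to 1.02 without replicate 1, where a match in the other replicate was enough.

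Among the 11 thresholded peaks, the top of the list held 3 gene pairs. The strongest peak of all lists lay between F56G4.6, which RefSeq describes as a Rod_C domain protein, and wbp-4, a U1-type zinc finger domain protein by the same source (I, 11374361 to 11374546, with the summit 121 and 165 bp from their starts). It ranked 1 in the pooled list (signal 658), 1 in replicate 1 (signal 254) and 1 in replicate 2 (signal 393). This gap, 286 bp long, also held the shared word in its 12-base form, centred 29.5 bp from the summit.

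The next was cux-7/C07H6.2 (III, 7520768 to 7520923), where C07H6.2 encodes a ubiquitin ligase of the PPP1R11 type and cux-7 an RRM domain protein, per RefSeq. Its rank was 3 in the pooled list (signal 503), 3 in replicate 1 (signal 187) and 3 in replicate 2 (signal 315). The summit lay 1 bp from the annotated cux-7 start in a gap of 164 bp, so the peak also covered the beginning of the cux-7 record. The word shown above lies inside that record.

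F44E5.4/F44E5.5 (II, 11759412 to 11759550) was the third, a pair of heat-inducible Hsp70 genes and the single thresholded pair in which both genes were on the gene lists used here. The peak ranked 11 in the pooled list (signal 287), 7 in replicate 1 (signal 125) and 11 in replicate 2 (signal 169). The gap is 351 bp long and the summit was 143 bp from F44E5.4 and 208 bp from F44E5.5. In all 3 pairs the 2 replicates gave ranks within 4 places of each other.

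At a further 5 thresholded peaks at least 1 gene of the pair had a general cell function. Which gene of a pair a peak acts on was not tested. At rpl-20/Y17G9B.5 (IV, 4749872 to 4750255), rpl-20 encodes a protein of the large ribosomal subunit and Y17G9B.5 a relative of the mitochondrial protein ECSIT. That peak ranked 31 in the pooled list (signal 217), 40 in replicate 1 (signal 76.1) and 34 in replicate 2 (signal 136). At Y22D7AL.10/hsp-60 (III, 1618950 to 1619333) the genes encode the mitochondrial chaperonin Hsp60 and its partner Hsp10, which close as a cage around unfolded proteins. Its ranks were 41 (signal 194), 89 (signal 63.5) and 31 (signal 139) in the pooled list, replicate 1 and replicate 2, and the summit lay 213 bp from Y22D7AL.10 and 600 bp from hsp-60.

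At prp-19/K10D2.5 (III, 5172503 to 5172886), prp-19 encodes a ubiquitin ligase of the spliceosome. The summit was 25 bp from K10D2.5, an uncharacterized gene, and 650 bp from prp-19, with ranks of 53 (signal 177), 58 (signal 70.6) and 102 (signal 104). These first 3 of the 5 were thus in the first 102 of each replicate.

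The other two were not even across replicates. At sec-61.G/F32D8.7 (V, 10897180 to 10897563), sec-61.G encodes the gamma subunit of the channel that passes proteins into the endoplasmic reticulum, and F32D8.7 a Kunitz inhibitor domain protein. It ranked 73 in the pooled list (signal 158), 1451 in replicate 1 (signal 43.0) and 60 in replicate 2 (signal 113). At C45G9.11/C45G9.2 (III, 5068823 to 5069206), where C45G9.2 encodes a putative tRNA-dihydrouridine synthase, the ranks were 49 (signal 181), 1288 (signal 43.6) and 33 (signal 137). Both peaks were far stronger by rank in replicate 2.

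The opposite was seen at the pair of genes known from signalling and membranes. ced-5, opposite the PHD-type gene F01D4.5 (IV, 10483719 to 10484102), encodes the DOCK1 relative that acts in the engulfment of dying cells and in cell migration. Its peak ranked 70 in the pooled list (signal 160), 39 in replicate 1 (signal 76.7) and 751 in replicate 2 (signal 82.8). cav-2 encodes a caveolin, a coat protein of membrane invaginations, and faces C56A3.6, an EF-hand gene (V, 13556669 to 13557052). Its ranks were 78 (signal 157), 59 (signal 70.5) and 650 (signal 84.0). Both were stronger by rank in replicate 1.

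The last thresholded pair, W02H5.16/W02H5.19 (V, 2638526 to 2638909), codes for a protein with a G protein-coupled receptor domain and for an uncharacterized protein. It ranked 39 in the pooled list (signal 198), 67 in replicate 1 (signal 68.2) and 39 in replicate 2 (signal 131). It was the single one of the 11 within reach of a non-coding gene, meaning inside its record or at most 1000 bp upstream of it, where 42 of the 322 peaks were.

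All 11 peaks were found in both replicates, with summits 0 to 27 bp from the pooled summit in replicate 1 and 0 to 7 bp in replicate 2. The largest offset was at sec-61.G/F32D8.7 in replicate 1. The thresholded list was made from the same replicates and holds the strongest pooled peaks. Being found in both is thus tied to how the peaks were listed and is not a separate test.

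**Figure D3:**
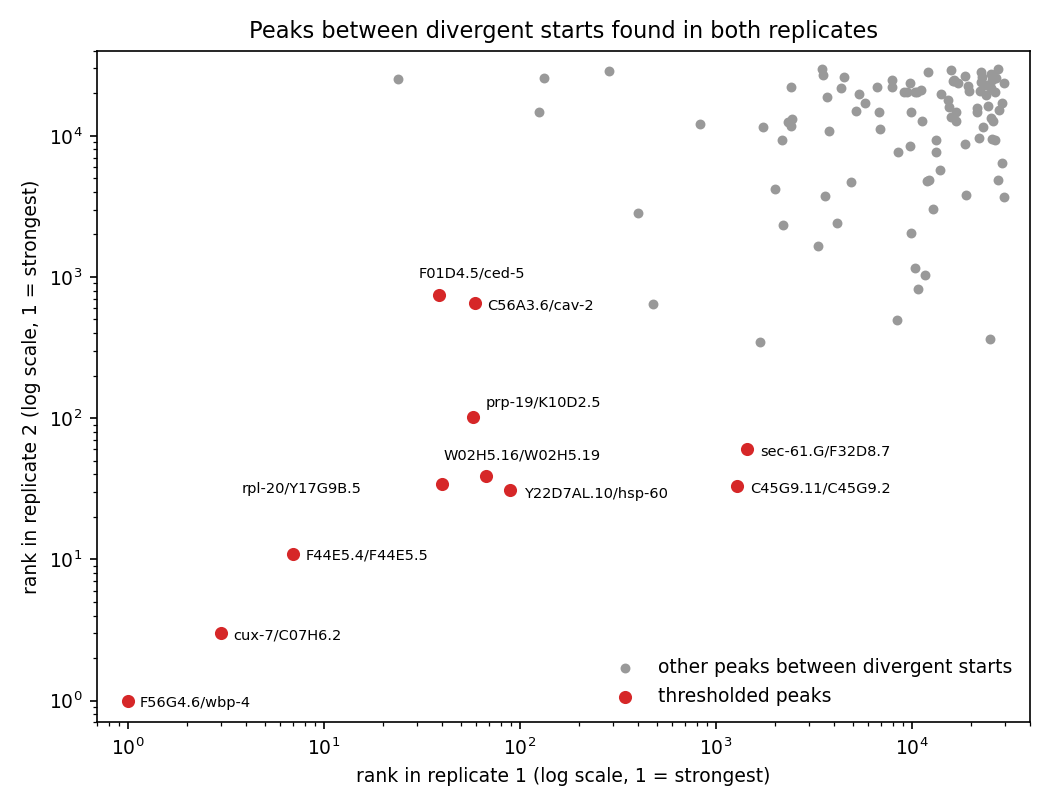
Rank in replicate 2 against rank in replicate 1 (both log axes, 1 = strongest) for the 112 peaks between divergent starts that were found in both replicates. Red points are the 11 thresholded peaks and grey points the others. The ranks of F56G4.6/wbp-4, cux-7/C07H6.2 and F44E5.4/F44E5.5 lie near the diagonal, while sec-61.G/F32D8.7 (1451 and 60) and F01D4.5/ced-5 (39 and 751) lie on opposite sides of it.

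Below the threshold 1 of 311 peaks matched the first 1000 of both replicates. It was the next of the 322 in pooled rank, C53B4.3/pdzd-8, a major facilitator gene opposite a PDZ domain gene. It ranked 185 in the pooled list (signal 136), 480 in replicate 1 (signal 49.5) and 639 in replicate 2 (signal 84.2). E02H1.1/tag-124, which encode a putative dimethyladenosine transferase and a tRNA pseudouridine synthase, ranked 191, 1679 and 349, and held the 9-base word in the shortest gap with a peak, 128 bp. Its peak reached past both starts. At rpl-15/K11H12.8, with rpl-15 another large-subunit ribosomal protein gene, the ranks were 203 pooled, 24 in replicate 1 and 25118 in replicate 2. This is a peak of high rank in 1 replicate only.

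Others of the first 25 were uneven to different degrees. The potassium channel subunit gene mps-3, opposite T06A4.3, had ranks of 395 pooled, 25148 in replicate 1 and 363 in replicate 2. ifet-1/rps-1 pairs a translational repressor gene with one for a small-subunit ribosomal protein, and its ranks were 460, 402 and 2817. The degenerin channel pair del-2/degl-2 ranked 567, 10396 and 1163. At W09C5.12/ints-4, where ints-4 encodes a subunit of the Integrator complex, they were 575, 3337 and 1659, and 1 second copy of the summit sequence was found in the genome. At gmps-1/cap-2, genes of GMP synthase and of an actin capping subunit, they were 632, 8444 and 494.

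Peaks between divergent starts were also unlike in the replicates at the end of this range. F30A10.2/F30A10.12 ranked 589 in the pooled list, 10768 in replicate 1 and 825 in replicate 2. ndab-1/npp-16, an acyl carrier protein gene opposite a nuclear pore gene, ranked 980 in the pooled list and 856 in replicate 2 and was not found in replicate 1. C23G10.11/hot-4 (955, 133 and 25593), mip-2/F58G11.4 (1063, 285 and 28817) and K01G5.10/tasp-1 (1134, 126 and 14836) were high in replicate 1 only, in pooled list, replicate 1 and replicate 2 order. The cuticle collagen gene col-71 and its neighbour Y49F6B.2 closed the first 25 with ranks of 1232, 2007 and 4181.

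Peaks between divergent starts were found in both replicates more often than one-sided peaks, and this rested on replicate 1. Both replicates held 112 of the 322 (34.8%, 29.6 to 40.3) and 827 one-sided peaks (26.2%, 24.7 to 27.8), against 27.1% of all autosomal pooled peaks. The odds ratio was 1.50 (1.17 to 1.93, adjusted p = 0.00304 by Fisher's exact test). Replicate 1 alone held 182 (56.5%) against 46.5% of one-sided peaks, an odds ratio of 1.49 (adjusted p = 0.00168 by Fisher's exact test). Replicate 2 alone held 225 (69.9%) against 69.5%, an odds ratio of 1.02 (adjusted p = 0.949 by Fisher's exact test). Of the 322, 70 were found in replicate 1 only, 113 in replicate 2 only and 27 in neither.

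Of the 322, 6 (1.86%, 0.687 to 4.01) matched a peak in the first 100 of both replicates, against 17 one-sided peaks (0.538%, 0.314 to 0.861) and 0.147% of all autosomal peaks. In the first 1000 of both were 10 (3.11%, 1.50 to 5.64), against 34 one-sided peaks (1.08%, 0.747 to 1.50) and 0.483% of all autosomal peaks. Without thresholded peaks 1 of 311 and 11 of 3132 were left in the first 1000 of both. These shares were added after the data were seen and were not tested.

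Long gaps more often held a peak, while the thresholded peaks had a shorter median gap than all gaps. The median gap was 650.5 bp among all 2318, 1156 bp at the 322 peaks and 453 bp (164 to 1292) at the 11 thresholded peaks. At the 22 peaks in the first 1000 it was 691 bp, slightly above that of all gaps. A pooled peak was present in 2.52% of 357 gaps up to 250 bp, 5.68% of 511 gaps of 251 to 500 bp, 10.8% of 771 gaps of 501 to 1000 bp and 25.5% of 679 gaps of 1001 to 2000 bp. Per length these classes were closer, with 155, 160, 152 and 205 peaks per Mb. Thresholded peaks ran the other way per length, with 17.2, 32, 5.37 and 1.03 per Mb from 1, 6, 3 and 1 peaks. Peaks of the first 1000 numbered 3, 7, 6 and 6 in these classes, and their number per gap was not tested.

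**Figure D4:**
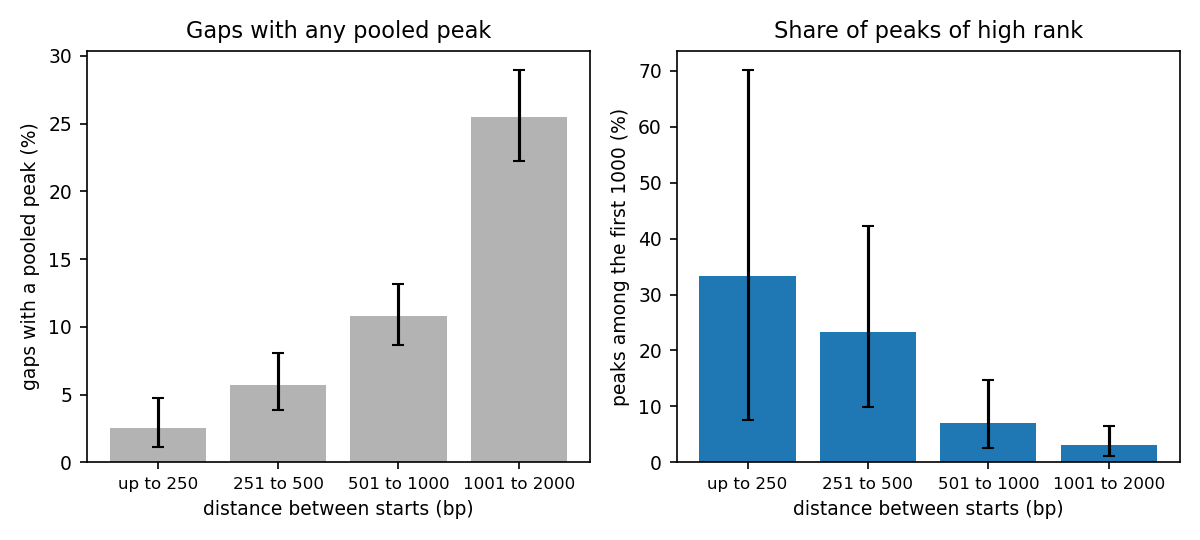
Left, percent of gaps that held any pooled peak, and right, percent of the peaks between divergent starts that were among the first 1000 pooled peaks, both by distance between the starts (bp). Bars are shares and error bars exact 95% intervals. The left share was 2.52% in the shortest class and 25.5% in the longest, and the right share 33.3% (3 of 9 peaks) and 3.03% (6 of 198).

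Among the 322 peaks, those in gaps of at most 500 bp were in the first 1000 in 10 of 39 cases (25.6%, 13.0 to 42.1) and those in longer gaps in 12 of 283 (4.24%, 2.21 to 7.29). These are shares of peaks and not of gaps. The odds ratio was 7.70 (2.73 to 21.4, adjusted p = 0.000196 by Fisher's exact test). The direction was the same in each replicate alone (12.5 in replicate 2 and 5.05 in replicate 1, the ratios without the other replicate). With the limit at 300 bp it was 4.50 from 4 of 18 peaks and missed the threshold (adjusted p = 0.106 by Fisher's exact test). Of the peaks in short gaps, 15 of 39 (38.5%) were found in both replicates, against 97 of 283 (34.3%), an odds ratio of 1.20 (0.557 to 2.51, adjusted p = 0.794 by Fisher's exact test).

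The distance from the summit to the nearer start did not pass the test at the limit used. In the shortest gaps every summit is near a start, so this comparison is not separate from that of gap length. The relative place within the gap was not tested. Summits at most 200 bp from the nearer start were in the first 1000 in 13 of 145 cases (8.97%) and those farther away in 9 of 177 (5.08%), an odds ratio of 1.83 (0.701 to 5.02, adjusted p = 0.377 by Fisher's exact test). With the limit at 300 bp it was 4.57 and passed (adjusted p = 0.023 by Fisher's exact test). Found in both replicates were 35.2% and 34.5% (odds ratio 1.03, 0.633 to 1.68, adjusted p = 0.907 by Fisher's exact test). At the 11 thresholded peaks the distance to the nearer start was 1 to 243 bp, with a median of 172 bp. Most pooled peaks have a fixed width of 384 bp, and 138 of the 322 reached past at least 1 of the starts, 14 of them past both.

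**Figure D5:**
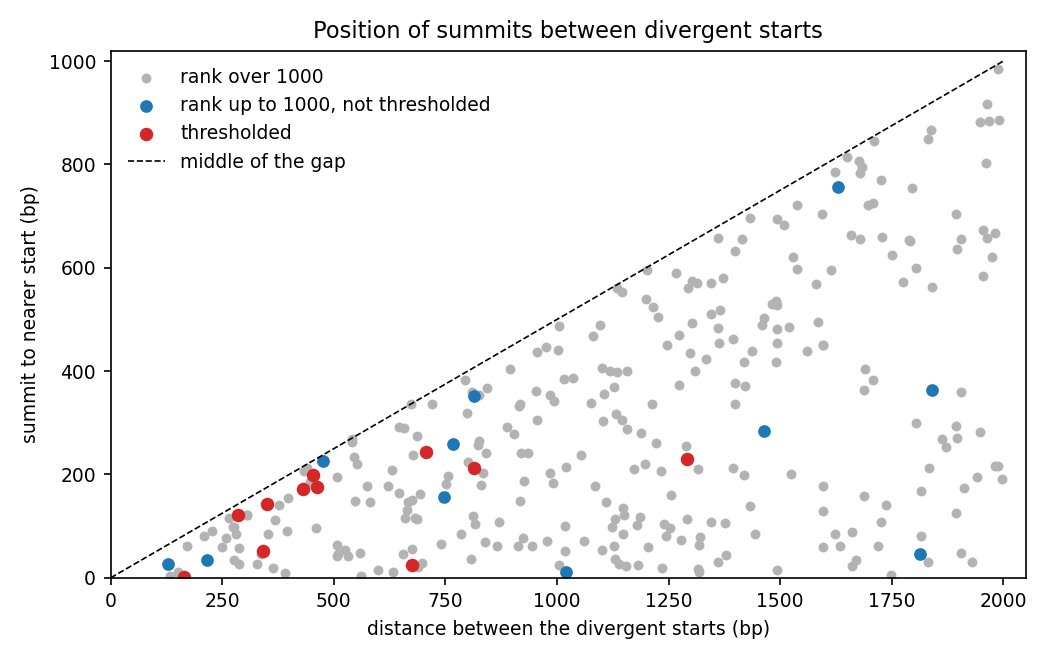
Distance from the summit to the nearer start (bp) against the distance between the divergent starts (bp) for the 322 peaks. Red points are thresholded, blue points other peaks of rank up to 1000, and the dashed line marks the middle of the gap, above which no summit can lie. Of the 11 red points, 10 are at gaps up to 1000 bp, and all 11 are within 243 bp of a start.

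The limit of 2000 bp was set by rule, and gaps just beyond it held peaks too. Gaps of 1501 to 2000 bp numbered 257 and held 86 peaks, of which 0 were thresholded and 3 in the first 1000. The 179 gaps of 2001 to 2500 bp held 78 peaks, of which 1 was thresholded (rank 7) and 5 in the first 1000. Found in both replicates were 26.7% and 24.4%.

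Many gaps with a peak held no gene of the lists used here, 184 of the 294 with any pooled peak. The same was true of 7 of the 11 with a thresholded peak and 16 of the 22 with a peak in the first 1000. The share of all 2318 gaps with no listed gene was not counted, so nothing about gaps with peaks follows from these counts. The lists were set by symbol and are described by counts with no test, beside the 12.7% of all gaps with a peak (294 of 2318) and the 22 gaps with a peak in the first 1000. Of 46 gaps with a ribosomal protein gene, 3 held a peak (6.52%), and all 3 were in the first 1000: rpl-20, rpl-15 and rps-1. Of 19 gaps with a heat shock or Hsp70 gene, 3 held a peak, at F44E5.4/F44E5.5, at hsp-60 and at supr-1/dnj-28, the latter at rank 15803. The 19 gaps of mRNA processing genes held 1, at prp-19.

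No peak lay in the gaps of 5 further groups of general cell function. These were 17 gaps of translation factors (median length 406 bp), 13 of tRNA synthetases (657 bp) and 21 of proteasome subunits (444 bp). The others were 7 of the vacuolar ATPase (628 bp) and 18 of mitochondrial respiration (330.5 bp), where all gaps had a median of 650.5 bp. The single gap with a basic helix-loop-helix gene and the 2 gaps of the glia and dopamine list also had 0 peaks. Whether these counts differ from the share of all gaps was not tested, nor was the part of gap length in them.

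Gene families of the senses, the body surface and regulation held peaks, with 0 in the first 1000. The best peak per gap had a median pooled rank of 13961 over all gaps, 17275 for chemoreceptors, 10245 for collagens and 8683.5 for nuclear receptors. Chemoreceptor genes, whose products sense odours and other chemicals, had 238 gaps, of which 59 held a peak (24.8%). Of these 59, 22 had a peak found in both replicates, a share close to the 109 of 294 over all gaps with a peak. The best chemoreceptor gap was srt-6/R13D7.2 at pooled rank 3066, followed by str-81/F21D9.11 at 3154 and B0495.9/sre-1 at 3442. Collagen genes of the cuticle had 31 gaps, of which 8 held a peak (25.8%), the best at col-71, then col-77/M195.2 at 3513 and prmt-4/col-102 at 6876. Of 35 gaps with a nuclear receptor gene 6 held a peak, led by nhr-80/H10E21.1 at rank 3536, nhr-77/glct-3 at 4026 and bgnt-1.3/nhr-218 at 5651.

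These groups differ in gap length, which moved with the share of gaps that held a peak. The median gap was 998.5 bp for chemoreceptors, 839 bp for collagens and 1053 bp for nuclear receptors, against 532.5 bp for ribosomal proteins, and its part in the counts was not tested. F-box genes, with a median of 453 bp, had 15 of 77 gaps with a peak (fbxb-93/fbxb-56 at 4165, fbxb-85/hex-3 at 6939 and fbxc-50/C17F4.2 at 8307). C-type lectin genes had 11 of 61, the first 3 being clec-99/ZK39.10 at 3869, clec-245/clec-246 at 8854 and clec-241/clc-13 at 11991. These lists also had 0 peaks in the first 1000.

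The remaining lists were small. Homeobox genes had 3 of 8 gaps with a peak (C09G12.17/ceh-53 at 6213, ceh-19/csr-1 at 18017 and ceh-76/Y97E10AR.2 at 21211), and neuropeptide and insulin genes 2 of 10 (ins-19/ins-31 at 3119 and ZC334.13/ins-29 at 23119). Histone genes, many of which stand in divergent pairs, had 32 gaps with a median of 273 bp and 3 peaks, at his-42/F08G2.4 (18808), his-67/his-68 (23188) and his-61/his-62 (24590). The 13 gaps of cytochrome P450 genes held 1, C36A4.10/cyp-25A1 at 29425.

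Both genes of a gap were on the lists in 173 gaps, of which 29 held a peak. F44E5.4/F44E5.5 led them at pooled rank 11. After it came the insulin pair ins-19/ins-31 at 3119, which ranked 1856 in replicate 2 and was not found in replicate 1, the F-box pair fbxb-93/fbxb-56 at 4165, and the chemoreceptor pairs str-13/str-33 at 4806 and sri-53/sri-50 at 4963. The lists go by symbol, so Y22D7AL.10/hsp-60 (rank 41) is not among the 29, although RefSeq names Y22D7AL.10 a heat shock protein.

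No gap held more than 2 peaks. Of the 28 with 2, those with the best ranks were del-2/degl-2 (567 and 11492, 217 bp apart), W09C5.12/ints-4 (575 and 8755, 794 bp apart), C23G10.11/hot-4 (955 and 13021, 199 bp apart), Y75B8A.24/Y75B8A.25 (2589 and 9277, 203 bp apart) and W04A8.5/W04A8.9 (2593 and 9058, 995 bp apart). In each the second peak was much lower by rank, and none of the 5 was thresholded.

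E-boxes, the motif of the protein family of HLH-17, did not pass the test of a difference between peaks of divergent starts and one-sided peaks within 50 bp. In a narrower window of 25 bp the form CACGTG did, as given below. Searched on both strands within 50 bp of the summit, CANNTG was present at 112 of 322 (34.8%, 29.6 to 40.3), at 35.3% of one-sided peaks and at 38.3% of all autosomal peaks (odds ratio 0.976, 0.760 to 1.25, adjusted p = 0.855 by Fisher's exact test). The forms CACGTG (3.11% against 1.93%) and CAGCTG (3.11% against 2.15%), which CANNTG includes, had odds ratios of 1.63 (0.736 to 3.24) and 1.46 (0.662 to 2.88). All autosomal peaks had them at 2.66% and 2.75%. Of the 11 thresholded peaks 3 had an E-box in the window, at F44E5.4/F44E5.5, cux-7/C07H6.2 and C56A3.6/cav-2.

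Other promoter motifs did not pass the test either. TATAAA, the core of the TATA box, was at 12.1% against 9.06% of one-sided and 6.93% of all autosomal peaks (odds ratio 1.38, 0.943 to 1.99). GAANNTTC was at 5.59% against 6.55%, and 6.62% of all (0.844, 0.484 to 1.39). GAGAGA was at 8.39% against 6.90%, and 6.15% of all (1.23, 0.781 to 1.88). By Fisher's exact test 0 of the 6 motifs passed (smallest adjusted p = 0.447) and 0 had an unadjusted p under 0.05. Within 25 bp of the summit the E-box form CACGTG alone passed (odds ratio 3.13, adjusted p = 0.0239 by Fisher's exact test).

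The shared word was rare outside the strongest peaks. ACTCCTCTC lay within 50 bp of 6 of the 11 thresholded summits between divergent starts (54.5%, 23.4 to 83.3), 4 of the other 311 (1.29%, 0.352 to 3.26) and 38 of all 24440 autosomal summits (0.155%). Of all 101 thresholded autosomal summits 13 had the word (12.9%), among them those 6. At one-sided peaks it was at 5 of 26 thresholded summits (19.2%, 6.55 to 39.4) and 4 of 3132 others (0.128%), so it was not limited to divergent pairs. In its 12-base form it was at 5 of the 11, 2 of the 311, 3 of the 26, 2 of the 3132 and 18 of the 24440. The counts at the 11 come from the sequences in which the word was noticed and are no support for it.

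The 4 other summits with the word were spread through the ranks. They were E02H1.1/tag-124 at pooled rank 191, fbxb-85/hex-3 at 6939, mib-1/smc-3 at 10250 and Y48G9A.11/Y48G9A.6 at 27278. mib-1/smc-3 ranked 336 in replicate 1 and was not found in replicate 2, while fbxb-85/hex-3 ranked 1960 in replicate 2 and was not found in replicate 1. Among all 2318 gaps the 9 bases stood in 38, of which 12 held a pooled peak (31.6%) and 5 a thresholded one (13.2%). The 12 bases stood in 23 gaps, of which 9 held a peak (39.1%) and 4 a thresholded one (17.4%). Of all 2318 gaps, 294 held a pooled peak (12.7%) and 11 a thresholded one. The word was chosen at thresholded peaks, so these shares are no test of it. Most gaps with the word had no peak, which was also true of all gaps. Autosomes held 593 copies of the 9 bases and 233 of the 12.

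Peaks per Mb of gap ranged from 160 on IV to 207 on V. On chromosome III 4 of 44 gap peaks were thresholded, beside 21 of all its 4060 pooled peaks. The counts were 3 of 112 beside 18 of 6799 on V, 2 of 53 beside 25 of 5018 on IV, 1 of 62 beside 19 of 4504 on II and 1 of 51 beside 18 of 4059 on I. The shares were not tested between chromosomes.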

How the data were processed

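Peak lists were deposited on ce11 (WBcel235). Per the deposited notes, a relaxed list was called for each replicate against the same control, a pooled list from both, and a thresholded list by the irreproducible discovery rate. Neither aligner nor caller is given in the sources used here. The signal of each peak is the authors' deposited value, on an unstated scale, kept to ranks and summaries inside each list. Sequencing depth is unknown, so intervals cover counting of peaks only, treat peaks as independent, and say nothing of reads.

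Gene starts came from Ensembl release 115, and sequences and product names from RefSeq. Summits were classed by position. Two-sided Fisher's exact tests were made in SciPy 1.17.1 with Python 3.11.15, with Benjamini-Hochberg adjustment over the 5 shares, over the 4 shares within the peaks described and over the 6 motifs, at a threshold of 0.05. Odds ratios are conditional with exact 95% intervals. BLAST 2.17.0 was used to look for second copies in the genome, with identity of 90% or more along 100 bp or more. The code was tested on simulated data.

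The members, tests and lists were chosen with earlier results of these data known. Alternatives with a limit of 250 bp, without second copies and with other rank limits in the replicates were chosen after seeing the data. Genes were named by rule: at the 25 strongest peaks, all thresholded peaks, up to 3 peaks per list, up to 5 gaps with both genes listed, and the 5 gaps with most peaks (ties by best rank). The other pairs that hold the shared word, mib-1/smc-3 and Y48G9A.11/Y48G9A.6, were named after their values were seen.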

Additional observations from a re-analysis of the deposited data

How the results depend on the processing

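The thresholded-list odds ratio stayed above 1 and past the threshold under 13 of 13 alternatives (3.53 to 26.2). These include the strongest peaks of a single replicate in place of that list, which gave the lowest value. For the first 1000 pooled peaks 10 of 14 passed (1.09 to 8.64), for peaks found in both replicates 12 of 14 (1.02 to 2.17), for the first 1000 of replicate 1 8 of 11 (1.30 to 6.04) and of replicate 2 4 of 11 (1.07 to 9.48). With starts at most 1000 bp apart replicate 2 passed (3.22), with 500 bp it passed (9.48) while both replicates did not (1.76). With both classes within 250 bp of a start replicate 2 passed (2.73, and 2.42 with one-sided summits outside gene records too). Outside gene records the first 1000 did not pass in the pooled list (1.66) or replicate 1 (1.44), nor without non-coding genes (1.81 and 1.69), nor as the first 3000 (1.09 and 1.30). With 1 replicate left out, the list of the other replicate was used. Its strongest peaks, as many as the thresholded list holds, gave 3.53 to 3.75, and its first 1000 gave 1.46 to 1.74. The share of pooled peaks found in that replicate, in place of both, gave 1.02 to 1.49. Short against long gaps gave 5.05 to 12.5 and 0.742 to 1.86 for these last shares, and near against far summits 1.32 to 2.45 and 1.105 to 1.11. At a gap limit of 300 bp short gaps gave 4.50 for the first 1000 and 0.709 for both replicates, and at 1000 bp 1.86 for both. At a distance limit of 300 bp near summits gave 4.57. Within 25 bp, 1 motif passed against 0, and TATAAA turned to 0.821. CAGCTG turned to 0.894 within 100 bp, and CANNTG to 1.12 outside gene records. The cause of these changes was not tested. No paired analysis was possible because there is a single group.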

Other observations

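The X chromosome, which was not part of the autosomal set, had 176 gaps between divergent starts and 38 peaks in them (199 per Mb). Of these, 0 were thresholded and 0 in the first 1000, the best ranked 2229, and 6 of 38 (15.8%) were found in both replicates. The whole chromosome held 5560 pooled peaks and 14 thresholded ones.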
